A study of Homo sapiens and Mus musculus with 69 samples.

Results

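The Polycomb repressive complex 2 (PRC2) and the DNA methylation machinery were followed through bulk RNA-Seq of small cell lung cancer (SCLC) cells as 10 genes: *EZH2*, *EZH1*, *EED* and *SUZ12* for PRC2, *DNMT1* and *UHRF1* for the maintenance of DNA methylation, *DNMT3A* and *DNMT3B* for its establishment, and *TET1* and *TET2* for its oxidation. They were taken by symbol, with earlier results of these data known though no measured value entered the rule, and make up 10 of the 20516 rows of the table for human cells and, in title case, 10 of the 18501 rows of the table for the mouse line KP1. The study asked how Notch signaling changes innate immune genes in SCLC. Its 69 libraries form 23 groups of 3: 60 libraries come from human H82, H524, H69 or COR-L88 cells and 9 from KP1, a line from a mouse SCLC that lacks *Rb1* and *Trp53*.

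H82, H524 and H69 were each sequenced as parental cells and after transduction with a doxycycline-inducible vector for the NOTCH1 intracellular domain (N1ICD), the active form of the receptor, without doxycycline (no dox) and after long-term doxycycline (dox). H82 cells with that vector were also sequenced with a REST KO and with a STING KO, each with and without dox, and H524 cells with an inducible vector for REST, a repressor of neuronal genes that acts downstream of Notch. COR-L88 was sequenced after long-term DMSO, TAS1440 or TAS1440 plus the gamma-secretase inhibitor (GSI) BMS-708163, and COR-L88 with a STING KO after DMSO or TAS1440. KP1 received DMSO, TAS1440 or TAS1440 plus the GSI DBZ. TAS1440 inhibits LSD1 (KDM1A), a histone demethylase that holds Notch genes silent in SCLC, and a GSI blocks the cleavage that releases the Notch intracellular domain. These models have limits. N1ICD and REST came from a lentiviral promoter under doxycycline, so their levels are those of the vector. The knockouts were made with CRISPR/Cas9, and the labels do not say which clone a library came from. The doxycycline groups were cells kept for weeks under the inducer. By the methods, the cells taken from them were the adherent ones, which come off only with trypsin. Induction and this selection cannot be told apart in the dox comparisons. No group received a GSI without TAS1440, so an effect of the GSI of its own cannot be told apart from blocked Notch signaling. Nothing in the labels says that the 3 libraries of a group were separate cultures, and the *P* values below measure only the spread between these libraries.

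PRC2 places methyl groups on lysine 27 of histone H3 and thereby keeps developmental genes silent. EZH2 and its paralog EZH1 are the alternative catalytic subunits, EZH2 being typical of dividing cells and EZH1 of resting ones, while EED and SUZ12 are core subunits that the enzyme needs for activity. DNMT1, brought to newly copied DNA by UHRF1, restores CpG methylation after replication, DNMT3A and DNMT3B methylate new sites, and TET1 and TET2 oxidize 5-methylcytosine on the way to its removal. In SCLC, where RB1 is lost, EZH2 is known to be abundant and to hold down antigen presentation and other immune genes.

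On the human genome (GRCh37, GENCODE annotation) *EZH2* lies at chr7:148504349-148581413 on the minus strand, *EZH1* at chr17:40852293-40897067 (minus), *EED* at chr11:85912254-85989855 (plus) and *SUZ12* at chr17:30264026-30328057 (plus). *DNMT1* lies at chr19:10244018-10341962 (minus), *UHRF1* on the same chromosome at chr19:4903092-4962165 (plus), *DNMT3A* at chr2:25450724-25565459 (minus) and *DNMT3B* at chr20:31350191-31397165 (plus). *TET1* lies at chr10:70320094-70454244 (plus) and *TET2* at chr4:106067032-106200973 (plus). All values are of whole genes, summed over their exons. *SUZ12* has a partial pseudogene copy on the same chromosome and *TET2* an antisense neighbor, and how reads shared with them were assigned is not stated, so both genes carry that uncertainty.

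Genes of DNA replication and mitosis often carry E2F sites or a cell cycle homology region (CHR) at the start site. The promoters of *EZH2*, *DNMT1* and *UHRF1*, the members that fell together in H524 cells with N1ICD, are printed here 5′ to 3′ on the strand of the gene, from 250 bases before to 50 bases after the start site, from RefSeq on GRCh38.p14, which is not the build of the expression table. Capitals mark a match, on either strand, to the E2F-type motifs TTTCCCGC or TTTGGCGC or to the CHR motif TTTGAA. The windows are chr7:148884242-148884541 (minus) for the first of the *EZH2* start sites, chr19:10194904-10195203 (minus) for *DNMT1* and chr19:4909251-4909550 (plus) for the first of the *UHRF1* start sites.
EZH2: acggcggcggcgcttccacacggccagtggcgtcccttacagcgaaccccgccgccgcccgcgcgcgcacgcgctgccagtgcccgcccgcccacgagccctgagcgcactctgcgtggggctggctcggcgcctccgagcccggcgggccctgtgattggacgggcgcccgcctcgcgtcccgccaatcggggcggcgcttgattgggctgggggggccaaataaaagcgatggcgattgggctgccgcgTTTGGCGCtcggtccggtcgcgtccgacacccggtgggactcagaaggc
DNMT1: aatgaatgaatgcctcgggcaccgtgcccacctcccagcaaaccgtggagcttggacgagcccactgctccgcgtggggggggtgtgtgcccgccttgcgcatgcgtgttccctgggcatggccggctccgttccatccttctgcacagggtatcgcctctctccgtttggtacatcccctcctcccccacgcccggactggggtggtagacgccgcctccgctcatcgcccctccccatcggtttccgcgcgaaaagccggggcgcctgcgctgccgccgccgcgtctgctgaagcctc
UHRF1: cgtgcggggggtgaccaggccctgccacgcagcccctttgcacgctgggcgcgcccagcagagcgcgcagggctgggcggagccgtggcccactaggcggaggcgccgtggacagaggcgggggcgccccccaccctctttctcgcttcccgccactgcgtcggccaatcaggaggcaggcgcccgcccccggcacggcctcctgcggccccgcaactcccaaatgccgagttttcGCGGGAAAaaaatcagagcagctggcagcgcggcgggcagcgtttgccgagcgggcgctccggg
The *EZH2* window holds TTTGGCGC at bases 252 to 259 and the *UHRF1* window TTTCCCGC, read on the opposite strand, at bases 237 to 244. No match to the 3 motifs lay in the *DNMT1* window, nor in those of the other start sites listed for *EZH2* and *UHRF1*. All 10 genes had an entry, and 1.63% of the 35116 promoters in the table hold TTTCCCGC, 0.652% TTTGGCGC and 15.2% TTTGAA. These shares are per promoter, whereas some members had several start sites. *SUZ12* had both TTTCCCGC and TTTGAA, without overlap. TTTGAA lay at 1 start site each of *TET2* and *DNMT3A*, and *EED*, *EZH1*, *DNMT3B* and *TET1* had no match. These matches describe letters and were not tested as binding sites.

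Values are log2(RPKM + 1), scaled by the authors for gene lengths that are not stated. Summed RPKM ran from 1.20e+06 to 2.33e+06 in human libraries and from 127599 to 143996 in KP1. An order of genes within 1 table rests on the length scaling and was not checked against another measure. Read counts were not part of the tables, so absolute depth is unknown; depth estimated from the smallest values ran from 0.699 to 1.53 times the median in human libraries and from 0.874 to 1.08 in KP1. Libraries of 1 group correlated across genes at *r* of 0.902 to 0.996, the lowest value being that of KP1 TAS1440 libraries 5 and 6. *NOTCH1* read 0.38 to 2.15 in the N1ICD vector cells without dox. With dox it read 4.26 to 5.56 in intact H82, 8.75 to 10.74 in its REST KO and 5.97 to 7.48 in its STING KO cells. It read 7.58 to 8.31 in H524 and 7.93 to 8.07 in H69 with dox, so intact H82 held the least. *REST* read 4.90 to 5.05 in the H524 REST cells without dox and 6.87 to 10.72 with it. RNA of the edited genes persisted in the libraries labelled REST KO (*REST* 3.99 to 4.20 without dox against 4.42 to 4.80 in intact cells) and STING KO (*TMEM173*, the gene of STING, 1.27 to 2.04 in H82 with dox against 1.07 to 1.17, and 0.96 to 1.16 in COR-L88 with TAS1440 against 2.03 to 2.54), and an RNA level does not show whether the protein was lost. The neuroendocrine genes that define SCLC were present in all untreated cells, with a list mean of 5.27 to 6.76 in the parental and COR-L88 DMSO libraries. Among markers of other cell types, the leukocyte genes *PTPRC* and *CD3E* did not pass 0.38 in any human library (at 0 in 40 and 53 of 60), while the fibroblast genes *COL1A1*, *DCN* and *LUM* peaked in H69 with dox at 11.09, 3.80 and 5.45. The epithelial gene *EPCAM*, also on that list, was above 0 in all 60 human libraries, and *Epcam* in all 9 of KP1. Sums over the list given below are therefore no measure of other cells in these cultures. In bulk RNA, fewer cells with a gene and less of its RNA per cell cannot be told apart.

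None of the 10 genes was at 0 in any human library. Averaged over the 60 libraries, *DNMT1* was highest at 9.03, followed by *SUZ12* at 6.81, *DNMT3B* at 5.44, *EZH2* at 4.60, *EZH1* at 3.51, *UHRF1* at 3.16, *DNMT3A* at 2.50, *EED* at 2.35, *TET1* at 1.65 and *TET2* at 1.18. The establishment enzyme *DNMT3B* varied most, over 3.44 log2 units between its lowest library (3.59, an H82 STING KO dox library) and its highest (7.03, a parental H69 library). *TET1* and *EZH1* followed with ranges of 3.13 and 3.05, and *TET2* had the narrowest at 1.44.

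**Figure D1:**
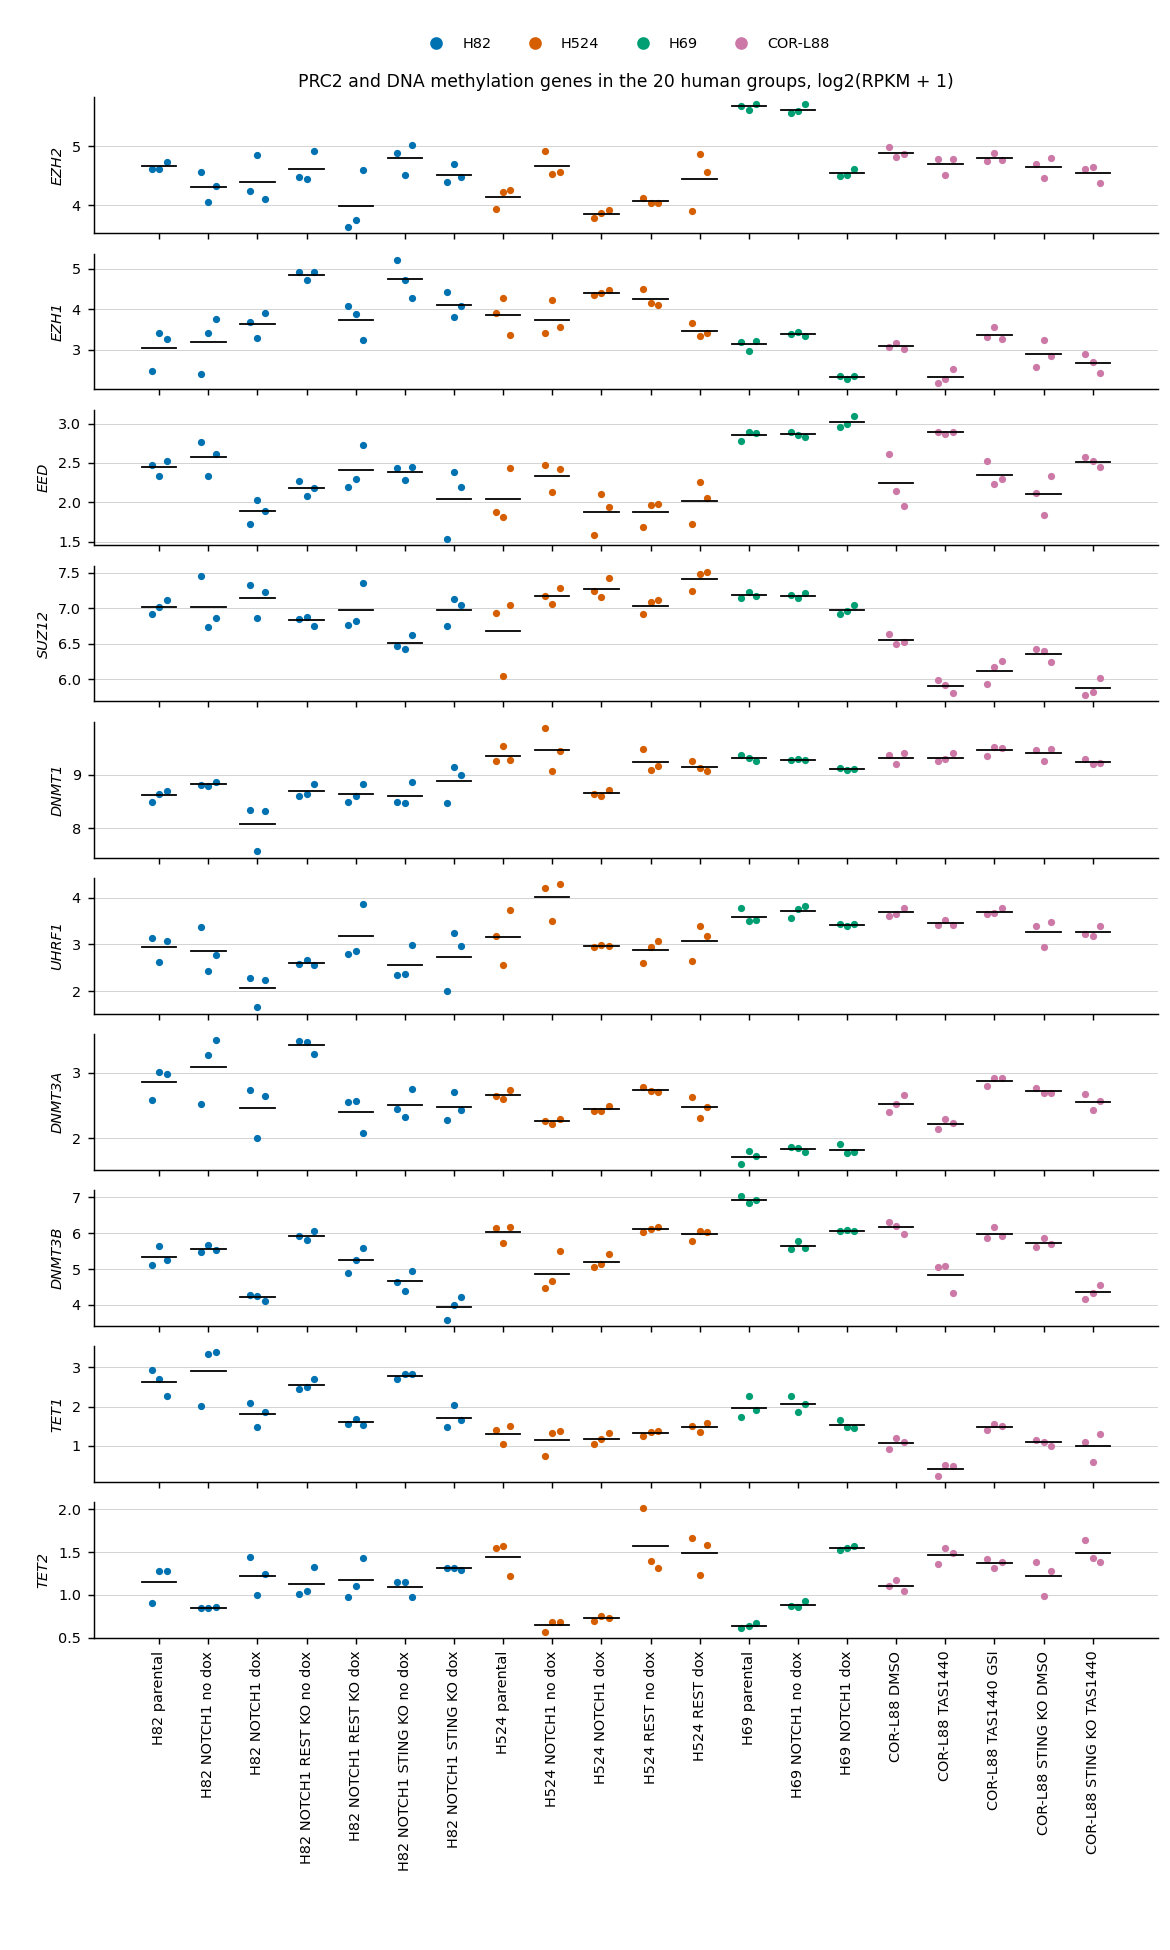
Level of each gene as log2(RPKM + 1) on the vertical axis in the 20 human groups on the horizontal axis, with a point per library and a bar at the mean of the 3 libraries. *EZH2* stood highest in H69 without dox, *EZH1* in the H82 knockout cells without dox, and *DNMT3B* ranged from 3.59 to 7.03.

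Before any treatment the lines already differed. *EZH2* was highest in parental H69 (5.68, 5.62 and 5.72) and lowest in parental H524 (3.94, 4.22 and 4.26). COR-L88 under DMSO (4.99, 4.82 and 4.86) and parental H82 (4.61, 4.62 and 4.74) lay between them, and all neighbors in this order but these (difference of COR-L88 over H82 0.23 ± 0.13 SE, adjusted *P* = 0.14) were separated by limma's test, at adjusted *P* of 0.0054 or less. *EZH1* had another order, with parental H524 highest (3.91, 4.28 and 3.37, mean 3.85) and H69, COR-L88 and H82 at means of 3.13, 3.10 and 3.05 that were not separated from each other. The calls for *EZH1* in H524 over the other lines (differences of 0.72 to 0.80, adjusted *P* of 0.022 to 0.034) were each lost without library 19 or 20, among others (adjusted *P* of 0.058 to 0.12).

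*DNMT3B* was again highest in parental H69 (7.03, 6.83 and 6.92), with COR-L88 (6.31, 6.19 and 5.98) and H524 (6.14, 5.74 and 6.18) not separated (adjusted *P* = 0.53) and H82 lowest (5.12, 5.64 and 5.25). Its fellow enzyme *DNMT3A* was lowest in the same H69 cells (1.62, 1.81 and 1.73), below H82 by 1.14 ± 0.15 (adjusted *P* = 3.1e-05). *DNMT1* was lower in H82 (8.50, 8.64 and 8.70) than in the other lines, which had means of 9.31 to 9.35. *TET1* was highest in H82 (2.92, 2.69 and 2.27), the call over H69 being lost without library 46 (adjusted *P* = 0.058), whereas *TET2* was lowest in H69 (0.62, 0.64 and 0.67). *EED* and *SUZ12* were higher in H69 than in COR-L88 by 0.61 ± 0.20 (adjusted *P* = 0.022) and 0.63 ± 0.22 (adjusted *P* = 0.029), and *EED* was higher in H69 than in H524 by 0.81 ± 0.20 (adjusted *P* = 0.0048). *UHRF1* was lower in H82 than in H69 by 0.66 ± 0.26 (adjusted *P* = 0.039) and than in COR-L88 by 0.74 ± 0.26 (adjusted *P* = 0.025). Leaving out single libraries ended the H69 and COR-L88 calls of *EED* (without 11, 12, 47 or 48) and *SUZ12* (without any of 10 to 12 and 46 to 48) and those of *UHRF1* over H69 (without 2, 3, 46, 47 or 48) and COR-L88 (without 2, 11 or 12), at adjusted *P* of 0.051 to 0.14. Between 3 and 7 of the 10 genes differed in each of the 6 pairs of lines (H82 and H524 5, H82 and H69 7, H82 and COR-L88 4, H524 and H69 7, H524 and COR-L88 3, H69 and COR-L88 7), where 56.3%, 68.8%, 64.3%, 58.0%, 59.1% and 57.0% of the 14047 genes tested did.

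In H82 cells, which express NEUROD1, the question was what long-term N1ICD does to these genes. Of the DNA methylation genes *DNMT3B*, *DNMT1*, *DNMT3A* and the oxidizing enzyme *TET1* fell, as did the PRC2 subunit *EED*, *TET2* rose, and *UHRF1* did not pass. In all 6 of the 10 genes passed the test, 5 of them lower, against a background of 50.3% of 13903 genes (24.9% lower and 25.4% higher), and the median change of the members was -0.66 where that of all genes tested was -0.0026. The catalytic subunits did not pass in either direction, *EZH2* with a change of 0.08 ± 0.25 (adjusted *P* = 0.80) and *EZH1* with 0.45 ± 0.34 (adjusted *P* = 0.28).

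*DNMT3B* read 5.47, 5.67 and 5.52 without dox and 4.29, 4.26 and 4.10 with it. Every dox library was below every library without dox, and the gene fell by 1.34 ± 0.21 on the log2 scale (adjusted *P* = 3.1e-05). *DNMT1* read 8.80, 8.79 and 8.87 against 8.34, 7.57 and 8.32, a fall by 0.75 ± 0.20 (adjusted *P* = 0.0055). Library 8 is the low one of the dox group, and without it the fall was by 0.49 (adjusted *P* = 0.034), while after quantile normalization the call was lost (-0.56, adjusted *P* = 0.053). *TET1* read 2.02, 3.34 and 3.38 without dox and 2.09, 1.47 and 1.87 with it, so that 1 library without dox, number 4, lay among the dox libraries, and it fell by 1.10 ± 0.28 (adjusted *P* = 0.0033).

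The scaffold subunit *EED* read 2.77, 2.34 and 2.61 without dox and 1.73, 2.03 and 1.89 with it, without overlap, and fell by 0.69 ± 0.20 (adjusted *P* = 0.0069). *UHRF1*, the partner of *DNMT1*, read 3.38, 2.42 and 2.78 against 2.28, 1.65 and 2.24. These libraries did not overlap either, but the spread left it short of the threshold (-0.80 ± 0.33, adjusted *P* = 0.054). *DNMT3A* fell by 0.63 ± 0.24 (adjusted *P* = 0.038) with groups that overlap, and the call was lost without library 5, 6 or 8 (changes of -0.55, -0.43 and -0.40, adjusted *P* of 0.12, 0.19 and 0.19). The rise of *TET2* by 0.37 ± 0.15 (adjusted *P* = 0.049) was lost without library 4, 5, 6, 7 or 9 (adjusted *P* of 0.078 to 0.20) and after quantile normalization, where the change was 0.02. *SUZ12* stood at 6.73 to 7.45 and 6.86 to 7.32, with no call. In a model of these 6 libraries alone *DNMT1*, *TET1*, *DNMT3A* and *TET2* missed the threshold (adjusted *P* of 0.056 to 0.17).

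Genes of proliferation moved in the same comparison: 15 of 19 fell, with a list mean of 7.18 to 7.38 without dox and 5.97 to 6.36 with it. The 5 neuroendocrine genes tested all fell, and the summed level of the 7 markers of other cell types with a row went from 1.04 to 11.9 RPKM without dox to 85.0 to 138 RPKM with it. Their part in the changes of the 10 genes was not tested.

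The REST KO and the STING KO were placed in the same H82 vector cells, so the dox response can be read in libraries labelled with and without a knockout, with the limit that RNA of the edited genes persisted. With the REST KO 5 of the 10 genes fell under dox and none rose (background 52.2% of genes, 26.2% lower and 26.0% higher), with a member median of -0.34. *DNMT3B* (5.93, 5.81 and 6.06 without dox, 4.88, 5.25 and 5.60 with it) and *TET1* (2.46, 2.51 and 2.69, then 1.56, 1.69 and 1.54) fell here too, by 0.69 ± 0.21 (adjusted *P* = 0.0090) and 0.95 ± 0.28 (adjusted *P* = 0.0085). *DNMT3A* read 3.48, 3.47 and 3.28 without dox and 2.56, 2.57 and 2.09 with it, no library overlapping, and fell by 1.01 ± 0.24 (adjusted *P* = 0.0020).

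In these REST KO cells the catalytic subunits fell as well. *EZH1* went from 4.92, 4.71 and 4.91 to 4.09, 3.88 and 3.24, a fall by 1.11 ± 0.34 (adjusted *P* = 0.0100), and *EZH2* from 4.48, 4.45 and 4.91 to 3.63, 3.75 and 4.59, a fall by 0.62 ± 0.25 (adjusted *P* = 0.041). Library 33 stood apart, as the dox library with the highest *EZH2* and the lowest *EZH1*. Without it the *EZH1* change was -0.86 (adjusted *P* = 0.059), and the *EZH2* call was lost without library 28, 30, 31 or 32 (adjusted *P* of 0.055 to 0.18). The *DNMT3B* call was lost without library 31 (-0.51, adjusted *P* = 0.062). Of the members not called, *UHRF1* changed by 0.57, *EED* by 0.23, *SUZ12* by 0.15 and *TET2* by 0.04. *DNMT1* gave no call (8.61, 8.64 and 8.82, then 8.49, 8.60 and 8.82), and with dox it was higher in REST KO than in intact cells by 0.56 ± 0.20 (adjusted *P* = 0.038). That comparison called 4 members, all higher (background 38.4%, 17.6% higher and 20.7% lower), the others being *DNMT3B* (1.03 ± 0.21, adjusted *P* = 0.00074), *UHRF1* (1.11 ± 0.33, adjusted *P* = 0.014) and *EED* (0.53 ± 0.20, adjusted *P* = 0.040). The *DNMT1* call was lost without library 8, 32 or 33 (adjusted *P* of 0.072 to 0.23), that of *UHRF1* without library 8 or 33 (adjusted *P* of 0.076 and 0.089) and that of *EED* without library 7, 9, 32 or 33 (adjusted *P* of 0.057 to 0.18).

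With the STING KO 2 of the 10 genes passed, again *DNMT3B* and *TET1*, both lower (background 37.8%, 16.9% lower and 20.8% higher), with a member median of -0.16. *DNMT3B* read 4.63, 4.39 and 4.96 without dox and 3.59, 3.99 and 4.22 with it, and fell by 0.73 ± 0.21 (adjusted *P* = 0.0093). *TET1* read 2.71, 2.83 and 2.82 and then 1.47, 2.03 and 1.65, and fell by 1.07 ± 0.28 (adjusted *P* = 0.0055). No library overlapped in either gene, though the *DNMT3B* call was lost without library 57 or 58 (adjusted *P* of 0.057 and 0.062). *DNMT1* read 8.49, 8.47 and 8.87 without dox and 8.48, 9.15 and 8.99 with it, which put it above the intact dox cells by 0.80 ± 0.20 (adjusted *P* = 0.0052, the only member called there, background 39.2%). In a model of those 2 groups alone that call was lost (adjusted *P* = 0.073). The other members gave no call for dox in the STING KO cells, with changes of -0.64 for *EZH1*, -0.36 for *EED*, -0.29 for *EZH2*, -0.04 for *DNMT3A*, 0.16 for *UHRF1*, 0.22 for *TET2* and 0.47 for *SUZ12*.

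Proliferation genes were lower here as well, 12 of 19 with the REST KO (list mean 7.09 to 7.23 without dox, 5.73 to 6.68 with it) and 8 of 19 with the STING KO (6.46 to 6.89, then 5.05 to 6.39). The markers of other cell types summed to 0.445 to 0.606 RPKM and then 314 to 457 RPKM with the REST KO, and to 1.94 to 7.55 RPKM and then 157 to 159.6 RPKM with the STING KO. Their part was not tested.

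The difference between the dox response with a knockout and that in intact cells was tested directly. For the REST KO it passed for 2 members (background 16.6%), at -1.56 ± 0.48 for *EZH1* (adjusted *P* = 0.031) and 0.93 ± 0.28 for *EED* (adjusted *P* = 0.028). For the STING KO it passed for *DNMT1* (1.01 ± 0.29, adjusted *P* = 0.034, background 9.26%). Each of these was lost when some single libraries were left out, *EZH1* without 4, 7, 9, 28, 30 or 33, *EED* without 4, 6, 7, 29, 30 or 33, and *DNMT1* without 5, 6, 8, 55, 56, 59 or 60 (adjusted *P* of 0.050 to 0.094). For *DNMT3B* and *TET1* neither difference passed. With dox *NOTCH1* was lower in intact cells (4.26 to 5.56) than in REST KO (8.75 to 10.74) and STING KO cells (5.97 to 7.48). The part of that level in these differences was not tested.

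Both knockouts also differed from intact cells before dox, and above all in *EZH1*. It read 2.40, 3.42 and 3.76 in intact vector cells, 4.92, 4.71 and 4.91 in REST KO cells and 5.22, 4.71 and 4.29 in STING KO cells. All knockout libraries were above all intact ones, by 1.66 ± 0.34 (adjusted *P* = 0.0032) and 1.55 ± 0.34 (adjusted *P* = 0.0018). *EZH1* was the only member called for the REST KO without dox (background 15.2%), and for the STING KO *DNMT3B* was lower by 0.90 ± 0.21 (adjusted *P* = 0.0027, background 34.6%), a comparison in which the median of all genes was itself -0.11. Parental and vector H82 cells without dox did not differ in any of the 10 genes by limma's test (background 13.7%).

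In H524, a second line that expresses NEUROD1, N1ICD and REST were induced separately, which sets the effect of the receptor against that of its downstream repressor. With N1ICD *EZH2*, *DNMT1* and *UHRF1* fell, and no member rose (3 of 10, background 32.3% of 13648 genes, 14.4% lower and 17.9% higher). The median change was 0.06 for the members and -0.02 for all genes. *EZH2* read 4.92, 4.53 and 4.56 without dox and 3.78, 3.87 and 3.92 with it. The dox libraries lay below all others and close to each other, and *EZH2* fell by 0.81 ± 0.21 (adjusted *P* = 0.0092). *DNMT1* read 9.87, 9.07 and 9.45 and then 8.64, 8.60 and 8.71, a fall by 0.81 ± 0.19 (adjusted *P* = 0.0044), and *UHRF1* 4.21, 3.51 and 4.29 and then 2.94, 2.99 and 2.97, a fall by 1.04 ± 0.29 (adjusted *P* = 0.015, but 0.064 without library 24). Parental H524 cells read 2.55 to 3.73 for *UHRF1*, a range that holds the dox libraries. For *EZH2* they read 3.94 to 4.26, between the groups without and with dox, and for *DNMT1* 9.25 to 9.53, above the dox libraries.

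*EZH1* read 3.41, 4.24 and 3.57 without dox and 4.34, 4.41 and 4.48 with it, opposite in direction to *EZH2* and short of the threshold (0.67 ± 0.25, adjusted *P* = 0.052). The establishment and oxidation genes gave no call: *DNMT3B* changed by 0.33, *DNMT3A* by 0.18, *TET1* by 0.03 and *TET2* by 0.08. The core subunits *SUZ12* (0.09) and *EED* (-0.47, adjusted *P* = 0.10) gave none either. Of the 19 proliferation genes 8 fell in the same comparison, with a list mean of 5.95 to 6.74 without dox and 5.55 to 5.86 with it, and 5 of 6 neuroendocrine genes fell. The markers of other cell types summed to 10.7 to 23.9 RPKM without dox and 46.2 to 63.2 RPKM with it. Their part was not tested. Before dox the vector cells differed from parental H524 in 4 members (background 26.6%): *DNMT3B* was lower by 1.14 ± 0.23 (adjusted *P* = 0.0034), *TET2* by 0.80 ± 0.18 (adjusted *P* = 0.0072) and *DNMT3A* by 0.40 ± 0.13 (adjusted *P* = 0.033), and *UHRF1* was higher by 0.85 ± 0.29 (adjusted *P* = 0.048). The last 2 calls were lost without single libraries of either group, *DNMT3A* without any of 19 and 21 to 24 (adjusted *P* of 0.053 to 0.078) and *UHRF1* without 19, 20, 22 or 24 (adjusted *P* of 0.093 to 0.18).

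REST induction in H524 called none of the 10 genes (background 2.83%; at an unadjusted *P* under 0.05, 2374 of the 13648 genes passed). The largest change was in *EZH1*, which read 4.50, 4.16 and 4.10 without dox and 3.65, 3.34 and 3.41 with it, without overlap (-0.78 ± 0.25, adjusted *P* = 0.11). *EZH2* read 4.13, 4.03 and 4.04 and then 3.90, 4.86 and 4.57, which overlap. The difference between the responses to N1ICD and to REST was itself tested and passed for these paralogs, at -1.19 ± 0.30 for *EZH2* (adjusted *P* = 0.013) and 1.46 ± 0.35 for *EZH1* (adjusted *P* = 0.0095), with 19.1% of genes called. Before dox the means of *EZH2* and *EZH1* were 4.67 and 3.74 in the N1ICD vector cells and 4.07 and 4.25 in the REST vector cells. These starting levels enter that difference, and their part was not tested. Among dox cells alone, N1ICD cells had less *EZH2*, *DNMT1*, *DNMT3B* and *TET2* and more *EZH1* than REST cells (5 members, background 42.8%), the clearest being *TET2* (0.70, 0.76 and 0.73 against 1.67, 1.23 and 1.58, adjusted *P* = 0.0044) and *EZH1* (adjusted *P* = 0.0070). Before dox, in a comparison that was not tested, the means of *TET2* and *DNMT3B* were already 0.65 and 4.87 in the N1ICD vector cells and 1.58 and 6.12 in the REST vector cells, so the induced gene and the vector line cannot be told apart here. The calls of *EZH2*, *DNMT1* and *DNMT3B* there were each lost without 4 or more of the single libraries (adjusted *P* of 0.054 to 0.17). The REST vector cells without dox gave no call against parental cells (background 0.300%).

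H69 had libraries close to each other and called 9 of the 10 genes under N1ICD, 6 lower and 3 higher, in a comparison that called 82.3% of the 13580 genes tested (38.3% lower, 44.1% higher). The median change was -0.19 for the members and 0.08 for all genes. Both catalytic PRC2 subunits fell by more than 1 log2 unit. *EZH2* went from 5.56, 5.59 and 5.71 to 4.50, 4.52 and 4.61, a fall by 1.08 ± 0.06 (adjusted *P* = 4.7e-07), and *EZH1* from 3.39, 3.43 and 3.34 to 2.35, 2.29 and 2.35, a fall by 1.06 ± 0.08 (adjusted *P* = 1.9e-06). *TET2* rose from 0.87, 0.86 and 0.93 to 1.52, 1.55 and 1.57, by 0.66 ± 0.06 (adjusted *P* = 5.1e-06), while *TET1* fell from 2.27, 1.86 and 2.07 to 1.66, 1.49 and 1.45, by 0.53 ± 0.15 (adjusted *P* = 0.011). The groups did not overlap in any of the 9 called genes, in a comparison that called 82.3% of all genes. The share of all genes without overlap was not counted.

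*DNMT3B* rose in H69, from 5.55, 5.79 and 5.58 to 6.06, 6.10 and 6.06 (0.43 ± 0.08, adjusted *P* = 0.00089). The changes of the remaining genes were small: *SUZ12* fell by 0.20 ± 0.05 (adjusted *P* = 0.0082), *DNMT1* by 0.18 ± 0.05 (adjusted *P* = 0.0068) and *UHRF1* by 0.29 ± 0.09 (adjusted *P* = 0.017), and *EED* rose by 0.16 ± 0.06 (adjusted *P* = 0.040). Here *DNMT1* read 9.27, 9.29 and 9.27 and then 9.12, 9.08 and 9.10, so that the call rests on the closeness of the libraries. The *EED* call was lost without library 50, 51, 53 or 54 (adjusted *P* of 0.072 to 0.15) and the *UHRF1* call without library 51 or 53 (adjusted *P* of 0.060 and 0.051). *DNMT3A* was at 1.80 to 1.87 and 1.78 to 1.91.

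The vector cells of H69 were not the same as the parental line before dox. *DNMT3B* was at 5.55 to 5.79 in them and at 6.83 to 7.03 in parental cells, lower by 1.28 ± 0.08 (adjusted *P* = 1.4e-05), so that the dox cells, at 6.06 to 6.10, lay between those groups. *TET2* and *EZH1* were higher than in parental cells by 0.24 ± 0.06 (adjusted *P* = 0.013) and 0.26 ± 0.08 (adjusted *P* = 0.038), the latter lost without library 46, 47, 50 or 51 (adjusted *P* of 0.061 to 0.10), with 3 members called and a background of 27.4%. Of the 19 proliferation genes 9 rose and 8 fell under dox, and their list mean stayed at 6.60 to 6.77 and 6.63 to 6.66. The markers of other cell types summed to 57.4 to 69.1 RPKM without dox and 2059.7 to 2240.7 RPKM with it, led by *COL1A1*. The part of these differences was not tested.

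**Figure D2:**
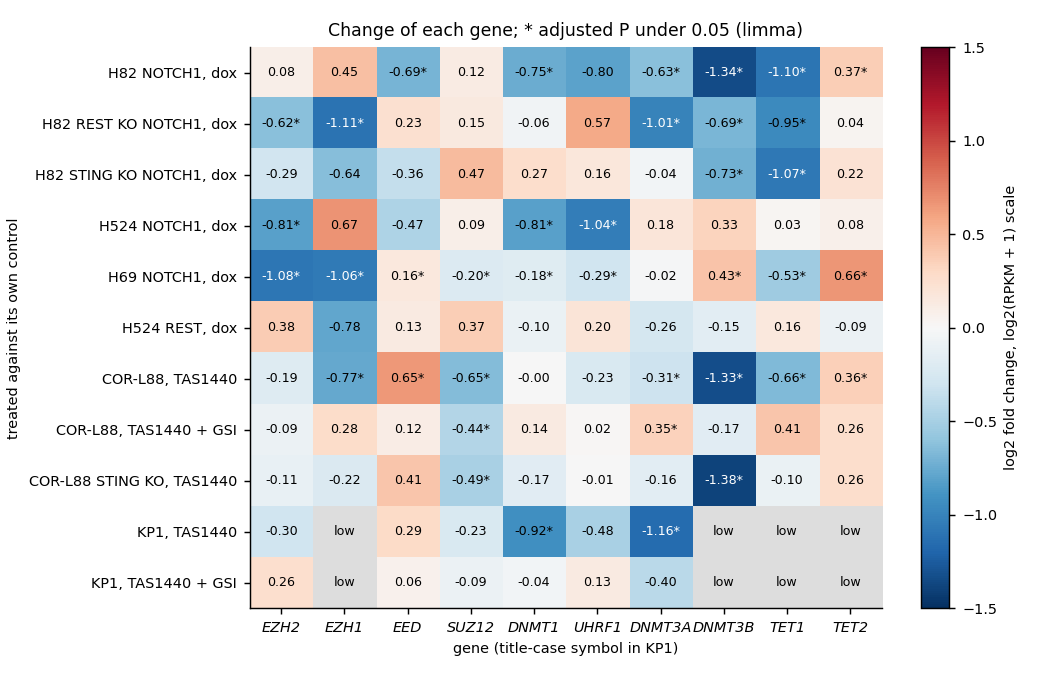
Log2 fold change of each gene (columns, title-case symbols in KP1) in treated cells against their own control (rows), with red higher, blue lower, an asterisk for an adjusted *P* under 0.05 and "low" for genes under the minimum value. *DNMT3B* ranged from -1.38 in COR-L88 STING KO cells under TAS1440 to 0.43 in H69 with dox, and *EZH2* was lower with an asterisk in H524, in H69 and in the H82 REST KO cells.

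The response to N1ICD was then compared between lines in 1 model of all 60 libraries. With dox *NOTCH1* read 4.26 to 5.56 in H82, 7.58 to 8.31 in H524 and 7.93 to 8.07 in H69. The part of that level in the differences below was not tested. H69 differed from H82 in 6 members (background 60.6%), the largest difference being that of *DNMT3B*, which fell in H82 and rose in H69 (1.77 ± 0.28, adjusted *P* = 5.0e-07). These responses are set against vector cells without dox, whose *DNMT3B* means were 5.56 in H82, 4.87 in H524 and 5.64 in H69. Parental cells had 5.34, 6.02 and 6.93, and cells with dox 4.21, 5.21 and 6.07, below the parental mean in each line. The part of the vector line was not tested. *EZH2* and *EZH1* were more negative in H69 than in H82 by 1.16 ± 0.27 (adjusted *P* = 0.00026) and 1.51 ± 0.37 (adjusted *P* = 0.00049). H524 differed from H82 in 4 members (background 32.4%): *DNMT3B* (1.67 ± 0.28, adjusted *P* = 4.9e-06), *TET1* (1.13 ± 0.31, adjusted *P* = 0.0036) and *DNMT3A* (0.81 ± 0.23, adjusted *P* = 0.0048) were higher in the H524 response and *EZH2* lower (-0.90 ± 0.27, adjusted *P* = 0.0084). In a model of the compared groups alone *TET1*, *DNMT3A* and *EZH2* lost these calls (adjusted *P* of 0.14, 0.16 and 0.069). For *EZH1* H69 stood apart from H524 by -1.73 ± 0.37 (adjusted *P* = 0.00010), in a comparison with 4 members called (background 54.8%). The values for *EZH2* in H69 and H524 did not differ by this test (-0.27 ± 0.27, adjusted *P* = 0.42), nor did those for *DNMT3B* (0.10 ± 0.28, adjusted *P* = 0.79), which does not show that they are alike.

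LSD1 inhibition in COR-L88 asked the same of a pharmacologic route to Notch signaling, with the GSI to block it. TAS1440 called 7 of the 10 genes, with *DNMT3B*, *EZH1*, *TET1*, *SUZ12* and *DNMT3A* lower and *EED* and *TET2* higher (background 57.7% of 13134 genes, 26.6% lower and 31.1% higher), and a member median of -0.27. *DNMT3B* went from 6.31, 6.19 and 5.98 under DMSO to 5.06, 5.09 and 4.34 under TAS1440, with library 15 the lowest, and fell by 1.33 ± 0.18 (adjusted *P* = 3.7e-05). With TAS1440 plus GSI it was back at 5.88, 6.16 and 5.92, above every TAS1440 library by 1.16 ± 0.18 on average (adjusted *P* = 0.00022). *TET1* followed the same course, with 0.93, 1.19 and 1.10 under DMSO, 0.24, 0.52 and 0.48 under TAS1440 and 1.40, 1.56 and 1.51 with the GSI. It fell by 0.66 ± 0.16 (adjusted *P* = 0.0029) and was lower than with the GSI by 1.07 ± 0.16 (adjusted *P* = 0.00012).

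*EZH1* read 3.08, 3.18 and 3.03 under DMSO, 2.18, 2.27 and 2.53 under TAS1440 and 3.31, 3.56 and 3.26 with the GSI. The TAS1440 libraries were below all others, by 0.77 ± 0.17 against DMSO (adjusted *P* = 0.0015) and by 1.05 ± 0.17 against the GSI group (adjusted *P* = 0.00022). *EZH2* was at 4.82 to 4.99, 4.52 to 4.79 and 4.75 to 4.88, with a change of -0.19 that was not called, and neither was that of *UHRF1* (-0.23, adjusted *P* = 0.14). *DNMT3A* fell from 2.40, 2.53 and 2.66 to 2.14, 2.30 and 2.23 (-0.31 ± 0.10, adjusted *P* = 0.015, but 0.068 without library 12) and with the GSI stood at 2.80, 2.91 and 2.91, above DMSO as well as TAS1440 (adjusted *P* of 0.018 and 0.00012). The call against DMSO was lost without library 10, 17 or 18 (adjusted *P* of 0.064 to 0.077).

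The core subunits moved apart. *SUZ12* fell under TAS1440, from 6.63, 6.50 and 6.52 to 5.98, 5.91 and 5.80 (-0.65 ± 0.11, adjusted *P* = 0.00020), and *EED* rose, from 2.62, 2.15 and 1.95 to 2.90, 2.87 and 2.90 (0.65 ± 0.16, adjusted *P* = 0.0039). With the GSI *SUZ12* stayed lower than under DMSO, at 5.93, 6.17 and 6.25 (-0.44 ± 0.11, adjusted *P* = 0.010, but 0.057 without library 16), whereas *EED*, at 2.53, 2.23 and 2.30, did not differ from DMSO and was below TAS1440 by 0.53 ± 0.16 (adjusted *P* = 0.016, lost without library 17 or 18). In all, 2 members differed between TAS1440 plus GSI and DMSO (background 24.5%) and 5 between TAS1440 with and without the GSI (background 46.7%). *DNMT1* stayed at 9.19 to 9.51 in all 9 libraries, and *TET2* rose by 0.36 ± 0.12 (adjusted *P* = 0.019), a call lost without library 12 or 14 and after quantile normalization (0.14, adjusted *P* = 0.37) or median centring (0.22, adjusted *P* = 0.12).

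In COR-L88 cells labelled STING KO, TAS1440 called 2 members, both lower (background 43.3%, 20.9% lower and 22.4% higher), *DNMT3B*, which fell from 5.61, 5.87 and 5.71 to 4.16, 4.34 and 4.55 (-1.38 ± 0.18, adjusted *P* = 4.3e-05), and *SUZ12*, from 6.43, 6.40 and 6.24 to 5.77, 5.82 and 6.02 (-0.49 ± 0.11, adjusted *P* = 0.0029). None of the 10 differences between the responses of STING KO and intact cells passed (background 7.93%), nor did any difference under DMSO (background 5.41%). Under TAS1440 *TET1* and *DNMT3A* were higher in STING KO cells by 0.57 ± 0.16 (adjusted *P* = 0.018) and 0.34 ± 0.10 (adjusted *P* = 0.021, background 27.1%). Both calls were lost without library 13, 43 or 45 (adjusted *P* of 0.058 to 0.095). Proliferation genes were lower in both settings, 13 of 19 in intact and 12 of 19 in STING KO cells, with a list mean of 6.56 to 6.76 under DMSO, 5.57 to 5.93 under TAS1440 and 6.27 to 6.40 with the GSI in intact cells. Among the markers listed for other cell types, the epithelial gene *EPCAM*, above 0 in every human library, peaked at 8.51 in intact cells under TAS1440. These markers summed to 214.9 to 296 RPKM under DMSO and 291 to 363 RPKM under TAS1440. Their part was not tested.

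**Figure D3:**
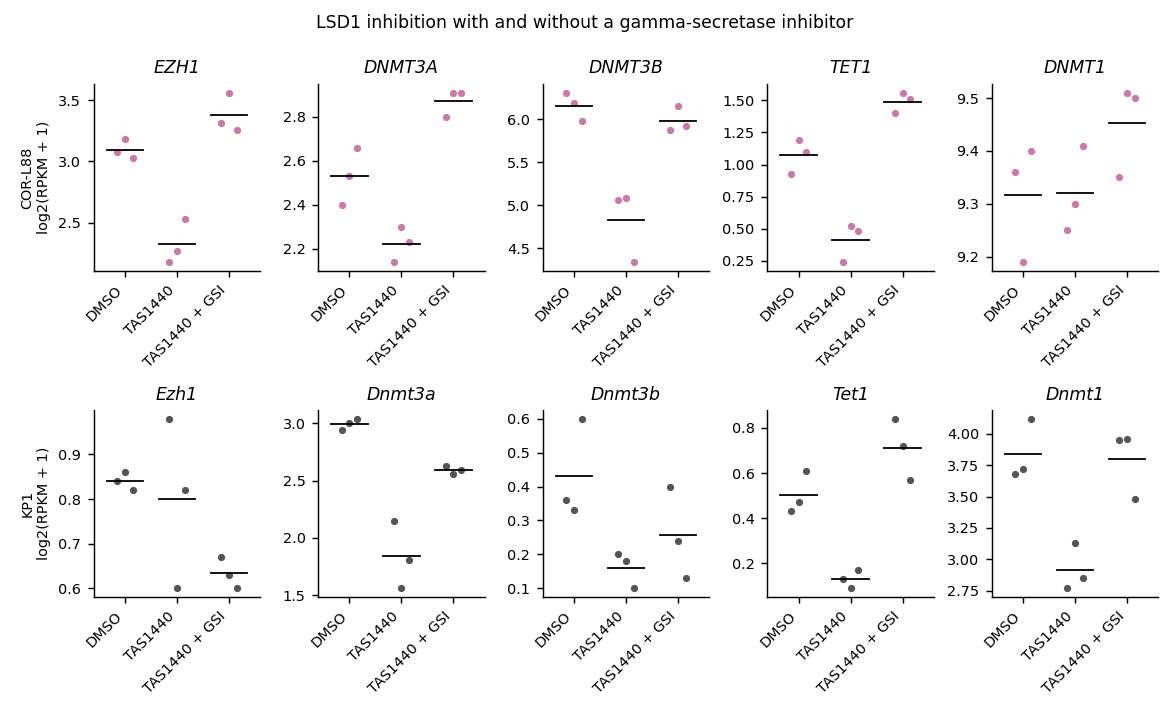
Log2(RPKM + 1) of 5 genes in COR-L88 (upper row) and KP1 (lower row) under DMSO, TAS1440 and TAS1440 plus GSI, with a point per library, a bar at the mean and an own scale in each panel. *DNMT3B*, *EZH1* and *TET1* in COR-L88 and *Dnmt3a*, *Dnmt1* and *Tet1* in KP1 were lowest under TAS1440, and the *Ezh1* libraries of KP1 overlap.

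In KP1, levels come from a separately normalized table and are not set against the human ones. *Dnmt1* and *Dnmt3a* fell under TAS1440 and stood higher with the GSI, and 4 of the 10 genes (*Ezh1*, *Dnmt3b*, *Tet1* and *Tet2*) were under the minimum value and not tested. *Dnmt3a* read 2.94, 3.00 and 3.04 under DMSO, 2.15, 1.56 and 1.81 under TAS1440 and 2.63, 2.56 and 2.59 with the GSI. The 3 groups do not overlap, and *Dnmt3a* fell by 1.16 ± 0.16 (adjusted *P* = 0.00047) and was lower than with the GSI by 0.75 ± 0.16 (adjusted *P* = 0.0064). *Dnmt1* read 3.68, 3.72 and 4.12 under DMSO, 2.77, 3.13 and 2.85 under TAS1440 and 3.95, 3.96 and 3.48 with the GSI, a fall by 0.92 ± 0.20 (adjusted *P* = 0.0059) and a difference to the GSI group of -0.88 ± 0.20 (adjusted *P* = 0.0088). These were 2 of 6 members tested against DMSO (background 36.7% of 8260 genes, 18.5% lower and 18.2% higher, member median -0.39) and, with *Uhrf1*, 3 of 6 against TAS1440 plus GSI (background 32.0%).

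*Uhrf1* read 3.57, 3.54 and 3.79 under DMSO, 3.09, 3.22 and 3.14 under TAS1440 and 3.95, 3.99 and 3.36 with the GSI. Its TAS1440 libraries were the lowest of the 9 (-0.48 ± 0.19 against DMSO, adjusted *P* = 0.079, and -0.62 ± 0.19 against the GSI group, adjusted *P* = 0.036), and the latter call was lost without library 4, 5, 6, 7 or 8 (adjusted *P* of 0.053 to 0.13). *Ezh2* read 3.65, 3.66 and 4.02, then 3.51, 3.51 and 3.41, and 4.34, 4.36 and 3.39 with the GSI. Library 9 was the low one of the GSI group in *Ezh2*, *Dnmt1* and *Uhrf1* alike, and *Ezh2* was not called against DMSO (-0.30 ± 0.26, adjusted *P* = 0.41). Of the untested genes, *Tet1* read 0.43, 0.47 and 0.61, then 0.13, 0.09 and 0.17, and 0.84, 0.72 and 0.57, again lowest under TAS1440. *Eed* (1.09 to 1.39, then 1.27 to 1.70) and *Suz12* (2.55 to 2.64, then 1.91 to 2.79) gave no call, and *Ezh1* stayed under 1 in all 9 libraries, as did *Dnmt3b* and *Tet2*.

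TAS1440 plus GSI against DMSO called no member of 6 in KP1 (limma, background 1.97%; 975 of 8260 genes had an unadjusted *P* under 0.05). Of the proliferation genes 1 of 19 was higher under TAS1440 and 1 lower by limma's test, at list means of 3.56 to 3.95 under DMSO and 3.35 to 3.69 under TAS1440. The 4 neuroendocrine genes tested fell, and their list mean spread from 0.11 to 2.37 over the 3 TAS1440 libraries. The markers of other cell types summed to 17.3 to 18.9 RPKM under DMSO and 0.710 to 16.2 RPKM under TAS1440, the epithelial gene *Epcam*, which fell by 3.47, being the only one tested. *Ptprc* was at 0 in 8 of 9 libraries. The part of these differences was not tested.

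The sign of the balance of the catalytic paralogs rests on the length scaling of both genes. That balance was read within each library as the log2 level of *EZH2* minus that of *EZH1*. It was below 0 in all 3 libraries of H524 with N1ICD and of the H524 REST vector cells without dox, and in no other group. The REST KO cells of H82 without dox had a mean of -0.232, with 1 library just above 0. In H524 it went from 0.932 ± 0.616 (SD, n = 3) without dox to -0.554 ± 0.0122 with N1ICD, and from -0.18 ± 0.163 to 0.98 ± 0.652 with REST, in opposite directions and without overlap. Each of these had an exact two-sided permutation *P* of 0.1, the smallest that 3 against 3 libraries can give. In COR-L88 it went from 1.79 ± 0.142 to 2.38 ± 0.205 under TAS1440 (exact permutation *P* = 0.1). In H69, where both genes fell, it was 2.24 ± 0.121 and 2.21 ± 0.0612 (exact permutation *P* = 0.8), in H82 1.12 ± 0.908 and 0.757 ± 0.71 (exact permutation *P* = 0.5) and in KP1 2.94 ± 0.228 and 2.68 ± 0.203 (exact permutation *P* = 0.3).

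**Figure D4:**
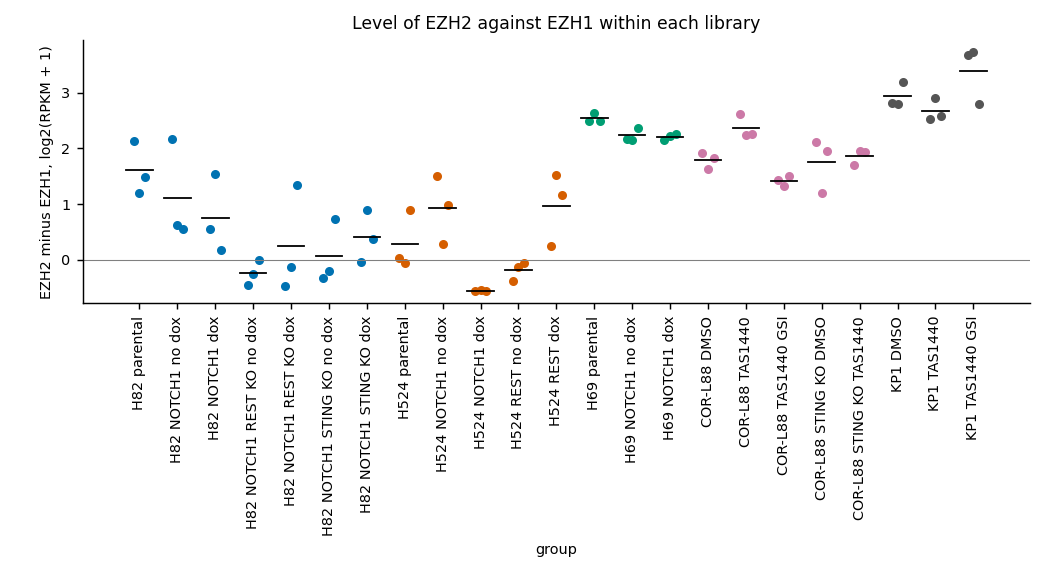
Difference between the log2(RPKM + 1) of *EZH2* and that of *EZH1* within each library on the vertical axis, by group on the horizontal axis, with a point per library, a bar at the group mean and a line at 0. H524 with N1ICD sits at a mean of -0.554 with the least spread, whereas the H69 groups and COR-L88 under TAS1440 (2.38) have means above 2. KP1, with *Ezh1* at 0.595 to 0.978, was normalized separately and is not set against the human groups.

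Other genes of the same machinery were counted from lists of partners, to be read against the share of all genes called in the same comparison: 25.4% higher and 24.9% lower in H82, 26.0% and 26.2% in the REST KO cells, 20.8% and 16.9% in the STING KO cells, 17.9% and 14.4% in H524, 44.1% and 38.3% in H69, 31.1% and 26.6% in COR-L88 and 18.2% and 18.5% in KP1. With REST in H524, 2.83% of genes were called in all. Of 10 PRC2 accessory subunits, 1 of 10 tested was lower under N1ICD in H82, 7 lower and 1 higher in the REST KO cells, 2 lower and 1 higher in the STING KO cells, 2 lower in H524, and 3 lower and 4 higher of 8 in H69. In COR-L88 under TAS1440 3 of 9 were lower and 1 higher, and in KP1 2 of 7 were lower. The medians of the tested subunits were, in this order, -0.28, -0.79, -0.34, -0.21, 0.06, -0.14 and -0.16, where those of all genes ran from -0.02 to 0.08. *JARID2*, which helps PRC2 reach its targets, fell in all 3 H82 settings (by 2.12 ± 0.29, 2.06 ± 0.29 and 1.68 ± 0.29, adjusted *P* of 8.8e-06, 1.0e-05 and 0.00016) and in COR-L88 (by 0.57 ± 0.11, adjusted *P* = 0.00069). With the GSI *JARID2* stayed at 2.41 to 2.66 in COR-L88, below DMSO (2.94 to 3.09) and overlapping TAS1440 (2.296 to 2.602). In H524 it read 3.04 to 4.38 without dox and 3.04 to 3.13 with N1ICD, which overlap. With REST in H524 it went from 3.19 to 3.22 up to 3.95 to 4.17, without a call. In H69 it read 3.37 to 3.51 without dox and 3.06 to 3.26 with it. In KP1 *Jarid2* read 5.29, 5.21 and 5.30 under DMSO, 3.18, 3.15 and 3.27 under TAS1440 and 5.12, 5.67 and 4.57 with the GSI, a fall by 2.07 ± 0.25 (adjusted *P* = 0.00019). *PHF19*, which binds methylated histone H3 for PRC2, fell in H524 by 0.92 ± 0.21 (adjusted *P* = 0.0041), in H69 by 0.73 ± 0.07 (adjusted *P* = 9.4e-06) and in the REST KO cells by 1.50 ± 0.27 (adjusted *P* = 0.00013).

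The same shares stand behind the 20 subunits of PRC1, the complex that reads the PRC2 mark, where 50.3% of all genes were called in H82, 32.3% in H524 and 82.3% in H69. Of these subunits 6 rose and 3 fell in H82 with N1ICD, 5 rose and 2 fell in the REST KO cells, 4 rose and 2 fell in the STING KO cells, and 6 rose and none fell in H524. In H69 9 of 19 rose, *BMI1* by 1.28 ± 0.07 (adjusted *P* = 2.4e-07), and 8 fell. Under TAS1440 there were 6 of 19 lower and 1 higher in COR-L88 and 7 of 16 lower and 1 higher in KP1, where *Cbx2* fell by 1.50 ± 0.22 (adjusted *P* = 0.00059). The medians were 0.03, 0.06, 0.13, 0.15, 0.33, -0.13 and -0.44 for H82, its REST KO and STING KO cells, H524, H69, COR-L88 and KP1. REST in H524 called 1 PRC1 subunit, *PCGF2* (1.91 ± 0.37 higher, adjusted *P* = 0.014), and 1 accessory subunit of PRC2, *C17orf96* (2.82 ± 0.38 higher, adjusted *P* = 0.0015), an inhibitor of the complex also called EPOP.

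Among 10 partners of DNA methylation and demethylation, against 24.9% of all genes lower in H82, 26.2% in the REST KO cells, 16.9% in the STING KO cells and 14.4% in H524, 3 of 10 were lower with N1ICD in H82, 3 of 10 in the REST KO cells, 2 of 10 in the STING KO cells with 1 higher, and 3 of 9 in H524 with 1 higher. In H524, beside *DNMT1* and *UHRF1*, these were *HELLS* (-1.18 ± 0.19, adjusted *P* = 0.00029), a chromatin remodeler of DNA methylation, *PCNA* (-0.84 ± 0.16, adjusted *P* = 0.0015), the replication clamp that DNMT1 binds, and *IDH2* (-1.09 ± 0.31, adjusted *P* = 0.016). In H69 3 rose and 4 fell of 9, with *TET3*, the third of the oxidizing enzymes, higher by 1.99 ± 0.08 (adjusted *P* = 6.4e-08) and *UHRF2* lower by 1.16 ± 0.08 (adjusted *P* = 1.2e-06). Under TAS1440 2 of 9 were higher and 2 lower in COR-L88, and 2 of 9 higher and 1 lower in KP1. The medians were -0.18, -0.31, -0.04, -0.31, 0.09, -0.12 and 0.08 for H82, its REST KO and STING KO cells, H524, H69, COR-L88 and KP1. REST in H524 called none of 9 (limma).

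*DNMT3L*, a cofactor without catalytic activity that stimulates DNMT3A and DNMT3B, was the partner with the widest change in H82. It read 4.08, 6.72 and 6.28 without dox and is listed at 0 in all 3 libraries with dox. In the REST KO cells it read 4.72, 4.34 and 3.99, in the STING KO cells 4.27, 5.39 and 4.19, and it is listed at 0 in every dox library of both. It is thus listed at 0 in 9 of the 21 H82 libraries, all with dox, and parental H82 cells read 4.70, 5.15 and 3.55. In the other human lines it is listed at 0 in 34 of 39 libraries.

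Of 8 readers of methylated CpG sites, 2 were higher and 2 lower in H82, 2 and 1 in the REST KO and 1 and 0 in the STING KO cells, 1 and 1 in H524, 2 and 4 in H69, 3 and 1 in COR-L88 and 2 and 1 of 7 in KP1, where 50.3%, 52.2%, 37.8%, 32.3%, 82.3%, 57.7% and 36.7% of all genes were called in either direction. *ZBTB38* rose in H82 by 1.03 ± 0.23 (adjusted *P* = 0.0013), in H524 by 1.67 ± 0.46 (adjusted *P* = 0.014) and in COR-L88 by 0.66 ± 0.13 (adjusted *P* = 0.00061). The H3K27 demethylase *KDM6B*, which removes the PRC2 mark, rose with N1ICD in H524 by 0.94 ± 0.18 (adjusted *P* = 0.0014) and fell with REST there by 0.75 ± 0.18 (adjusted *P* = 0.047). In COR-L88 it was lower under TAS1440 than under DMSO by 0.51 ± 0.13 (adjusted *P* = 0.0047) and than with the GSI by 0.73 ± 0.13 (adjusted *P* = 0.00058).

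The group means of each member were set beside the mean of the 19 proliferation genes over the 20 human groups, both centred on the mean of their line. The correlation was highest for *DNMT3A* (*r* = 0.768), *TET1* (*r* = 0.75) and *DNMT3B* (*r* = 0.72), and lower for *DNMT1* (*r* = 0.408) and *EZH2* (*r* = 0.222). It was near 0 for *UHRF1* (*r* = 0.0815), *EED* (*r* = 0.0674), *TET2* (*r* = 0.02), *SUZ12* (*r* = 0.0119) and *EZH1* (*r* = -0.0388). These are descriptions over 20 groups that share their libraries, their lines and the treatments, so no *P* value is given. Between members, *DNMT3A* went with *TET1* (*r* = 0.665) and with *DNMT3B* (*r* = 0.651), and *DNMT1* with *UHRF1* (*r* = 0.632).

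**Figure D5:**
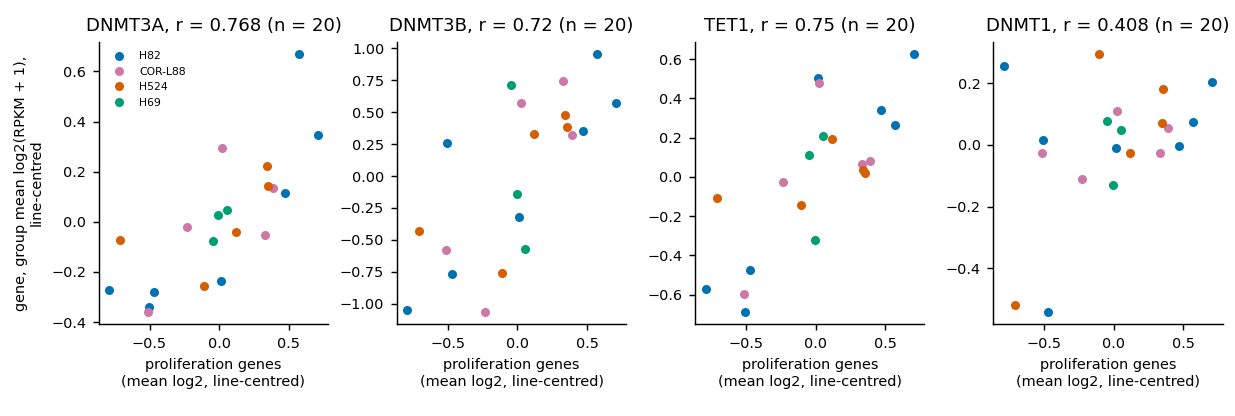
Group means of *DNMT3A*, *DNMT3B*, *TET1* and *DNMT1* (vertical axes) against the mean of 19 proliferation genes (horizontal axes), as log2(RPKM + 1) centred on the mean of the groups of each line, with a point for each of the 20 human groups. *DNMT3A*, *DNMT3B* and *TET1* rise with the proliferation genes, with *r* of 0.768, 0.72 and 0.75, and *DNMT1* less so with 0.408.

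The genes whose pattern over the same 20 groups was most like that of a member were searched among 12691 genes. *DNMT1* was closest to *LMNB2*, a nuclear lamin, *CHAF1A*, a histone chaperone of replication, and *SMARCA4*, a chromatin remodeler (*r* = 0.916, 0.868 and 0.823). *EZH1* was closest to *L3MBTL1*, *DDX17* and *UNKL* (*r* = 0.914, 0.891 and 0.889), *EZH2* to *SLC6A5*, *C12orf65* and *DACH1* (0.901, 0.896 and 0.894), *EED* to *PDE4A*, *RMDN3* and *THSD1* (0.923, 0.860 and 0.838) and *SUZ12* to *DHFRL1*, *ZNF23* and *ZNF322* (0.855, 0.837 and 0.837). For the DNA methylation genes these were *PTPN23*, *ABI2* and *EIF4B* for *DNMT3A* (0.870, 0.850 and 0.826), *ZNF488*, *FAM72C* and *ZCRB1* for *DNMT3B* (0.841, 0.819 and 0.814) and *MAEA*, *HNRNPM* and *DDX24* for *UHRF1* (0.807, 0.800 and 0.791). *TET1* was closest to *PC*, *TRMT2B* and *NUDT3* (0.924, 0.892 and 0.885) and *TET2* to *RNF216*, *USP9X* and *WDR26* (0.926, 0.898 and 0.891).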

How the data were processed

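PolyA RNA of 69 libraries was sequenced in pairs after a stranded mRNA preparation. According to the methods and the submitters' processing notes, the authors trimmed reads with Cutadapt, aligned them with STAR to hg19 (mm10 for mouse), quantified them with RSEM and scaled them by the TMM method of edgeR before forming RPKM. The deposited values are log2 of RPKM + 1, made by the authors, in a human table of 60 libraries and a KP1 table of 9 that was normalized separately. Tool versions, gene lengths and the strand setting of the counting are not given in the sources used here, and TMM scaling assumes that most genes do not change.

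Groups were taken from the sample titles. For each line, limma (version 3.58.1, under R 4.3.3) was fitted to all its groups at once, with 1 mean per group and a trend in the moderated variances, after dropping genes that did not reach 1 on the log2 scale in 3 or more libraries. Two-sided *P* values were corrected across the genes of a fit by the Benjamini-Hochberg method, with calls at an adjusted *P* under 0.05, ± values of fold changes are standard errors, and fold changes are on the log2(RPKM + 1) scale, which understates those of low genes. Differences between lines came from 1 model of the 60 human libraries, and untreated lines from a model of their 12 libraries. Background percentages in the report are the share of all genes tested that were called. *EZH2* minus *EZH1* was compared with an exact permutation test (scipy 1.17.1). The code was tested on simulated data. Python 3.11.15 with numpy 2.4.6, pandas 2.3.3 and matplotlib 3.10.9 was used for the rest.

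All 10 members were tested where they passed the filter and are named in each response to N1ICD or TAS1440 in intact cells, and elsewhere mainly where called. Of the partner lists up to 3 genes were eligible, those with the largest changes among called genes whose groups do not overlap, and the 3 most correlated genes were given for each member. The members and the lists were chosen with earlier results of these data known. Alternatives were no filter, 0.1 in place of 1 as pseudocount, libraries centred on their median, quantile normalization, a model of the compared groups alone, and leaving out each library. Values of some genes of these lists are not reported here.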

Additional observations from a re-analysis of the deposited data

Results flagged for a closer look

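Differences between 2 responses that passed limma's test are collected here as values, in log2 units, with no explanation weighed. In H82 the response to dox in REST KO minus that in intact cells was -1.56 for *EZH1* (adjusted *P* = 0.031) and 0.93 for *EED* (adjusted *P* = 0.028), where 16.6% of genes were called. Both were lost when 1 of 6 single libraries was left out, *EZH1* without 4, 7, 9, 28, 30 or 33 (adjusted *P* of 0.056 to 0.083) and *EED* without 4, 6, 7, 29, 30 or 33 (adjusted *P* of 0.050 to 0.074). The response in STING KO minus that in intact cells was 1.01 for *DNMT1* (adjusted *P* = 0.034, 9.26% of genes called), lost without library 5, 6, 8, 55, 56, 59 or 60 (adjusted *P* of 0.057 to 0.094).

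In H524 the response to N1ICD minus that to REST was -1.19 for *EZH2* and 1.46 for *EZH1*, the paralogs moving in opposite directions in the same libraries. Neither call was lost under any alternative run. The vector cells already differed in mean before dox, with *EZH2* at 4.67 for N1ICD and 4.07 for REST and *EZH1* at 3.74 and 4.25. The part of these starting levels was not tested.

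The response to N1ICD in H69 minus that in H82 was -1.16 for *EZH2*, -1.51 for *EZH1*, 0.86 for *EED* (adjusted *P* = 0.0031), 0.57 for *DNMT1* (adjusted *P* = 0.025), 0.61 for *DNMT3A* (adjusted *P* = 0.019) and 1.77 for *DNMT3B*. The *DNMT1* call was lost without library 8 (0.31, adjusted *P* = 0.19) and after quantile normalization (0.05, adjusted *P* = 0.87), and the *DNMT3A* call without library 5, 6 or 8 (adjusted *P* of 0.057 to 0.13). In H69 minus H524 it was -1.73 for *EZH1*, 0.63 for *EED* (adjusted *P* = 0.031), 0.64 for *DNMT1* (adjusted *P* = 0.014) and 0.58 for *TET2* (adjusted *P* = 0.0087). Here the *DNMT1* call was lost without library 22 (0.43, adjusted *P* = 0.094) and after quantile normalization (0.33, adjusted *P* = 0.23), and the *EED* call without library 22, 24, 25, 51 or 54 (adjusted *P* of 0.053 to 0.12). In H524 minus H82 it was -0.9 for *EZH2*, lost without library 8 (adjusted *P* = 0.056), 0.81 for *DNMT3A*, 1.67 for *DNMT3B* and 1.13 for *TET1*. In a model of the compared groups alone the calls of *DNMT3A* and *TET1* were lost (adjusted *P* of 0.16 and 0.14). In H69 and H524 the vector cells without dox already had less *DNMT3B* than parental cells, and the part of this in its differences was not tested.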

How the results depend on the processing

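Of 358 member values, 120 were called, 69 of these in every alternative run and 51 not in at least 1, and 49 of the 238 values not called were called in an alternative. The tables hold no counts, so depth sets no stated limit, and 3 libraries per group limit the precision. No paired analysis was possible because library numbers are unique within each table and tie no libraries across groups. Called members changed by over 1.5 times as follows. Without the filter KP1 TAS1440 against DMSO went from 2 to 4. With a model of the compared groups alone, H82 N1ICD went from 6 to 2, H82 dox REST KO against intact from 4 to 2, H82 dox STING KO against intact from 1 to 0, H524 REST from 0 to 1, H524 vector against parental from 4 to 1, COR-L88 TAS1440 STING KO against intact from 2 to 0, the H82 STING KO minus intact response from 1 to 0, the H524 minus H82 response from 4 to 1 and parental H82 against H524 from 5 to 3; fewer libraries then estimate the spread. After quantile normalization H82 STING KO dox went from 2 to 4, the H82 STING KO minus intact response from 1 to 0 and the H524 N1ICD minus REST response from 2 to 4, and *TET2* under dox in H82 REST KO cells turned from 0.04 to -0.44 (adjusted *P* = 0.027); the cause was not tested. With a pseudocount of 0.1, *EZH2* minus *EZH1* in H69 turned from -0.024 to 0.101.

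Leaving out 1 library gave these ranges of members called. In H82 they were 4 to 5 for N1ICD (6 with all), 3 to 5 for N1ICD with REST KO, 1 to 2 with STING KO, 2 to 4 for REST KO against intact with dox and 1 to 2 without, 1 to 2 for STING KO with dox and 2 to 4 without, 0 to 1 for vector against parental, 0 to 3 for the REST KO minus intact response and 0 to 1 for that of STING KO. In H524 they were 3 to 4 for N1ICD, 0 for REST, 2 to 4 for N1ICD against REST, 2 to 4 for vector against parental and 2 to 4 for the difference of the responses. In H69 they were 7 to 9 for N1ICD and 2 to 3 for vector against parental. In COR-L88 they were 5 to 7 for TAS1440, 1 to 2 with GSI, 4 to 6 for TAS1440 against the GSI group, 2 to 3 for TAS1440 in STING KO, 0 to 3 for STING KO against intact under TAS1440 and 0 to 1 for the difference of the responses. In KP1 they were 2 for TAS1440 and 2 to 4 against the GSI group. Between lines they were 4 to 8 for H69 minus H82, 2 to 5 for H69 minus H524 and 3 to 4 for H524 minus H82, and for untreated lines 4 to 7 (H82 and H524), 5 to 7 (H82 and H69), 3 to 5 (H82 and COR-L88), 5 to 9 (H524 and H69), 1 to 4 (H524 and COR-L88) and 5 to 6 (H69 and COR-L88). *EZH2* minus *EZH1* changed by -0.76 to 0.159 in H82, turning to 0.159 without library 4, by -1.81 to -1.19 with N1ICD and 0.89 to 1.52 with REST in H524, by -0.0642 to 0.0453 in H69, turning to 0.0103 without library 52 and 0.0453 without library 51, by 0.465 to 0.645 in COR-L88 and by -0.374 to -0.126 in KP1.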
